A study of Mus musculus with 14 samples.

Results

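STAT transcription factors and SOCS feedback inhibitors were followed as 9 listed genes, Stat2, Stat3, Stat4, Stat5a, Stat6, Socs1, Socs2, Socs3 and Cish, in dendritic cells given a cathepsin inhibitor and a stimulus. The arrays carry single-gene probe sets for 18193 mouse genes, of which these are 9. Each gene is represented by its brightest single-gene probe set over 14 arrays, and all 9 were among the 12172 genes bright enough to test. The cells were dendritic cells grown for 8 days from BALB/c bone marrow progenitors with recombinant granulocyte-macrophage colony-stimulating factor (GM-CSF), and every group shares that strain and that cytokine. The 7 groups were solvent (DMSO, 0.01%), the cathepsin L inhibitor CLIK148 (5 µM), the cathepsin B inhibitor CA074Me (5 µM), solvent followed by CpG (25 µg/mL, a ligand of Toll-like receptor 9 labelled pro-Th1), solvent followed by TNF-alpha (500 U/mL, labelled pro-Th2), CLIK148 followed by CpG, and CA074Me followed by TNF-alpha. Pre-treatment lasted 1 h, and how long the stimulus acted before harvest is not stated in the labels. Each group had 2 arrays, 1 from each of 2 independent experiments, and neither inhibitor was combined with both stimuli.

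Cytokine receptors without kinase activity of their own are bound by JAK kinases, which phosphorylate STAT proteins once ligand binds, and the STATs then move as dimers into the nucleus. STAT2 acts with IRF9 downstream of type I interferon, STAT3 downstream of the IL-6 and IL-10 families, STAT4 downstream of IL-12 and type I interferon, STAT5 downstream of GM-CSF and the IL-2 family, and STAT6 downstream of IL-4 and IL-13. SOCS proteins and CISH are themselves switched on by STATs and close the loop by blocking the kinases or the receptors. In dendritic cells grown with GM-CSF, STAT5 signalling supports growth and survival, and Cish and Socs2 are textbook STAT5 targets. The arrays measured mRNA, so nothing here reports on STAT phosphorylation.

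Promoter windows of 4 members are shown first, as examples of windows that hold letters resembling STAT or interferon sites. Windows run from 250 bases before to 50 bases after a RefSeq start (GRCm38.p6, the C57BL/6J reference, whereas the cells were BALB/c), and 8 of the 9 members have at least 1. Both strands were searched for TTC and GAA with 3 bases between them, the spacing most STAT dimers bind, for the same with 4 bases between, the spacing STAT6 prefers, for GAAA repeated after 2 bases, the core of an interferon response element, and for a kB site. These occur in 8.3%, 6.95%, 3.44% and 0.155% of 32851 mouse windows. Capitals mark the matches, and each sequence reads 5′ to 3′ along its gene.
Cish (chr9:107296409-107296708, plus strand): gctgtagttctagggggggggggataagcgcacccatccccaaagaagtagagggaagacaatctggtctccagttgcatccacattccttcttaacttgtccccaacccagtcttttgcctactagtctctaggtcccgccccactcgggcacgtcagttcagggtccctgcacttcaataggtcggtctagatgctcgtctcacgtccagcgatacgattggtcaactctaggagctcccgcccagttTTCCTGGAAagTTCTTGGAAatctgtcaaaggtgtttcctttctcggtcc
Socs3 (chr11:117969317-117969616, minus strand): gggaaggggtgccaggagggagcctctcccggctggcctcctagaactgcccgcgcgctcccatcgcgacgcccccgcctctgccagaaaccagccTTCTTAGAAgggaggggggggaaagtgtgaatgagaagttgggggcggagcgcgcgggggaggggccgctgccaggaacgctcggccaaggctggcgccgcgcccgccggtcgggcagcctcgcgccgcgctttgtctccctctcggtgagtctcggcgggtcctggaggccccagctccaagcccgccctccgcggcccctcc
Socs1 (chr16:10785487-10785786, minus strand): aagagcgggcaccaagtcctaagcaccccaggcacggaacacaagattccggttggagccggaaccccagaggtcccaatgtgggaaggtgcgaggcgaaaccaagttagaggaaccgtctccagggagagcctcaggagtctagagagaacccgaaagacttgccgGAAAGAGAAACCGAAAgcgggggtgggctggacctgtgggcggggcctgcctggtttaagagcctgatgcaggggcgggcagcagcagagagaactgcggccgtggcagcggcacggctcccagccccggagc
Stat2 (chr10:128270248-128270547, plus strand): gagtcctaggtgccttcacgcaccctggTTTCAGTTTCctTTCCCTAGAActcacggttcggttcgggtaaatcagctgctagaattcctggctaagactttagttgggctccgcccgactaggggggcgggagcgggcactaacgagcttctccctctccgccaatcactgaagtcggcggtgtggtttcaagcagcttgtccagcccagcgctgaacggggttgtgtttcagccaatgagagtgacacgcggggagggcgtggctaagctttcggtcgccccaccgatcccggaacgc
Cish carries 2 matches to the 3-base STAT spacing and Socs3 carries 1. Socs1 carries 2 overlapping matches to the interferon core, and Stat2 has 1 on the opposite strand beside 1 match to the 4-base spacing. One of the 2 windows of Stat4 has 1 match to the interferon core, and the windows of Stat3, Stat5a and Stat6 have none of these letters. A match is a string of letters, not a measured binding site.

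Over the tested genes the r between both arrays of a group was lowest with solvent plus CpG (0.961) and highest with CLIK148 alone (0.985). All 10 dendritic cell markers passed the brightness filter, from the MHC class II gene H2-Aa (median 15.02 log2) and the lineage factor gene Zbtb46 (10.33) down to Flt3 (8.51) and Cd209a (7.98), the latter near the overall median of 7.52. All 8 macrophage markers passed too, from Cd14 (median 13.84) and Adgre1 (12.62) down to Apoe (9.22) and Mertk (8.38). All 7 granulocyte markers passed as well, with S100a8 between 14.70 and 15.10 and the mean of the 7 between 12.38 and 12.68. Of 6 lymphocyte and plasmacytoid cell markers 5 stayed at or below 7.95, Cd3e and Cd79a among them, and the sixth, Bst2, which interferon also induces, had a median of 12.49 and a highest value of 13.71 and was 1.59 and 0.21 log2 higher with CpG in experiments 1 and 2 (limma adjusted p = 0.259). In such bulk cultures, fewer cells of a type and less RNA per cell cannot be told apart. All levels below are the authors' log2 expression values, and changes are differences of log2 values.

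Stat5a, which encodes a STAT that acts downstream of GM-CSF, was the member with the largest mean change with either stimulus. Whether its change differs from those of other members was not tested. Its log2 level was 10.51 and 10.69 in the solvent arrays of experiments 1 and 2, 10.46 and 10.63 after CLIK148, and 10.45 and 10.68 after CA074Me. It was 12.14 and 11.94 with solvent plus CpG, 12.11 and 11.89 with CLIK148 plus CpG, 11.66 and 11.49 with solvent plus TNF, and 11.71 and 12.03 with CA074Me plus TNF. All 8 stimulated arrays lay above all 6 unstimulated ones, and the 3 unstimulated groups overlapped. For this and the similar separations of other members below, the share of all tested genes that separate alike was not counted. Both CpG groups overlapped each other, and CA074Me plus TNF overlapped the CpG groups but not solvent plus TNF.

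CpG raised Stat5a by 1.44 ± 0.15 log2 (± standard error throughout, 2 arrays in each group; limma adjusted p = 0.0055), which is 2.72-fold, with increments of 1.63 and 1.26 in experiments 1 and 2. It ranked 82nd of 12172 genes by its rise. After CLIK148 the rise was 1.45 ± 0.15 (adjusted p = 0.00932), from 1.65 and 1.26. With TNF after CA074Me it was 1.30 ± 0.15 (adjusted p = 0.00616), from 1.26 and 1.34. TNF after solvent gave 0.98 ± 0.15 log2 (adjusted p = 0.0584 without and 0.0138 with the experiment as a block), so that Stat5a rose with TNF in the blocked fit, by 1.16 and 0.80 in the separate experiments. The difference between CpG and TNF after solvent was 0.46 ± 0.15 (adjusted p = 0.63, and 0.186 with the block). The CpG call was lost without the solvent array of experiment 1 (adjusted p = 0.068) and when the fit held the compared groups alone (0.528), where 0 genes passed and 1035 had an unadjusted p under 0.05.

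The second Stat5a probe set gave almost the same rise with CpG, 1.46 log2 against 1.44, and a smaller one with TNF, 0.76 against 0.98 (adjusted p over all probe sets 0.00444 and 0.102, and 0.00106 and 0.0208 with the block). Stat5a lies on chromosome 11 between Stat5b and Stat3. Stat5b, the closest relative of Stat5a and picked here after its values were seen, was 0.46 ± 0.13 log2 higher with CpG (limma adjusted p = 0.113, and 0.00683 with the block) and 0.12 ± 0.13 higher with TNF (adjusted p = 0.871).

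**Figure D1:**
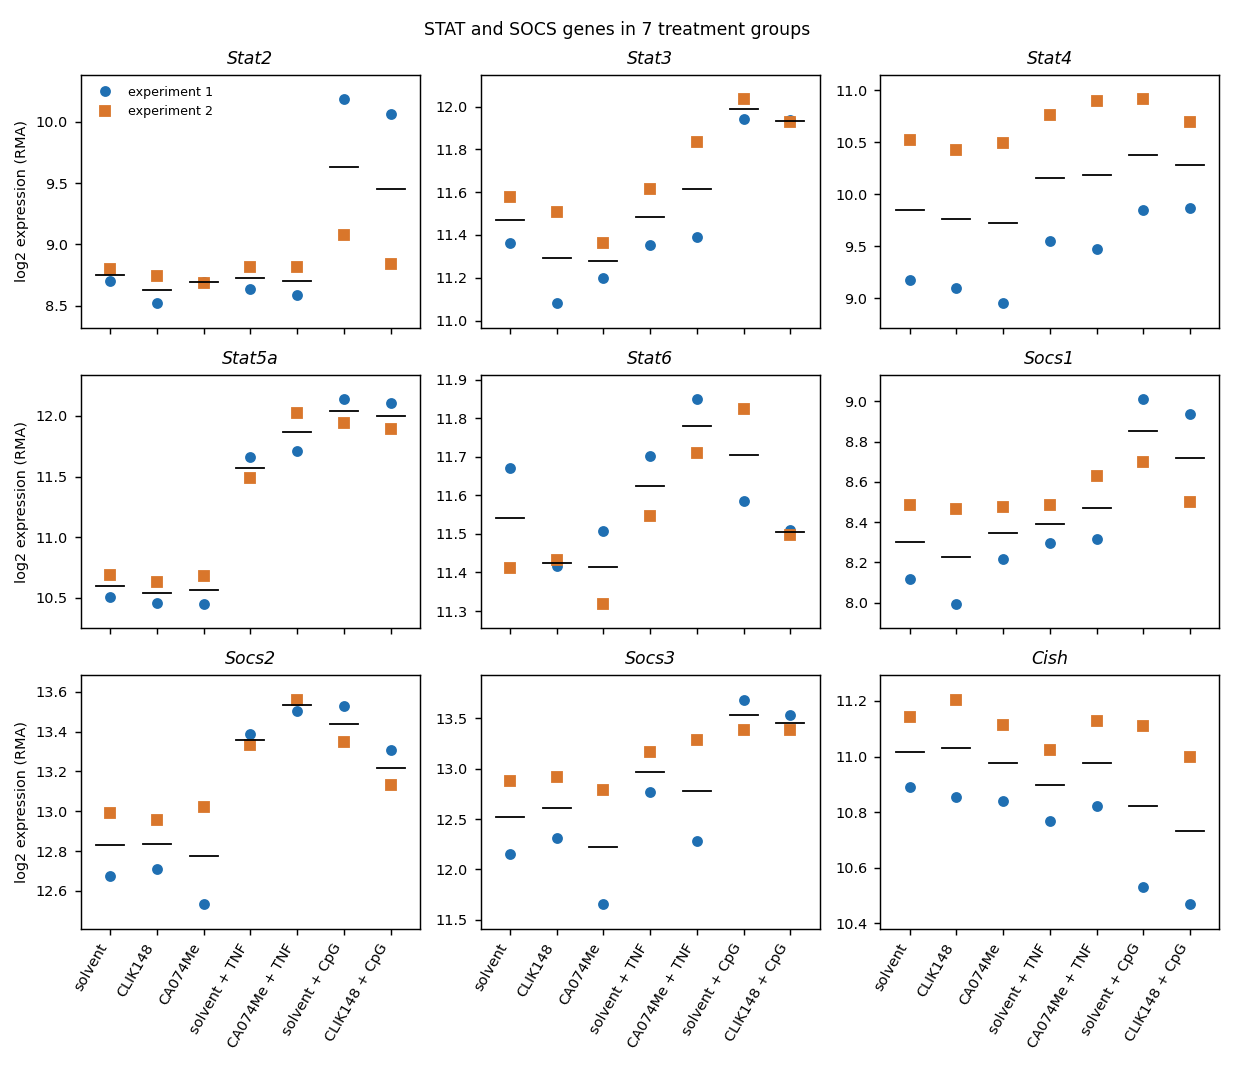
Log2 expression (y axis, RMA units) of each of the 9 genes in 7 treatment groups (x axis), with 1 point per array, circles for experiment 1, squares for experiment 2 and a bar at the mean of both. All 8 stimulated arrays lie above the unstimulated ones for Stat5a and Socs2, the CpG arrays of experiment 1 stand at 10.19 and 10.06 for Stat2, and experiment 2 lies above experiment 1 in every group for Stat4 and Cish. The share of all tested genes with such a separation by stimulus was not counted.

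Of the 9 members 1, Stat5a, changed with CpG, where 1.92% of all tested genes did, 1.07% higher and 0.854% lower. With the experiment as a block 4 members rose, Stat3, Stat4, Stat5a and Socs2, and 0 fell, where 19.9% of all tested genes changed, 6.19% higher and 13.7% lower. The members' changes with CpG had a median of 0.55 log2, beside -0.05 over all tested genes, and 8 of the 9 lay above 0. The block removes the gap between experiments averaged over the 7 groups, not a gap that differs between groups. For Stat2, Stat5a, Socs1, Socs2 and Socs3 the gap turned sign with CpG, as described below. Changes with CpG were larger in experiment 1 in general, with a standard deviation over all tested genes of 0.547 log2 against 0.267 in experiment 2, and 8 of the 9 members, all but Stat6, had the larger change there. Values for the other members follow by role.

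Stat3, whose product carries IL-6 and IL-10 signals, was 11.36 and 11.58 with solvent and 11.94 and 12.04 with solvent plus CpG. After CLIK148 it was 11.08 and 11.51, and with CLIK148 plus CpG 11.94 and 11.93. With solvent plus TNF it was 11.35 and 11.61, -0.01 and 0.03 log2 from solvent. The 4 CpG arrays lay above the other 10, of which the highest stood at 11.83. The CpG change was 0.52 ± 0.18 log2 (limma adjusted p = 0.18 without and 0.0142 with the block), and after CLIK148 it was 0.64 ± 0.18 (adjusted p = 0.131 and 0.0084). TNF gave 0.01 ± 0.18 (adjusted p = 0.99), with a 95% confidence interval from -0.23 to 0.26 with the block. Of the other Stat3 probe sets, 1 gave 0.70 log2 with CpG, and 2 dimmer ones gave 0.01 and 0.16.

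Stat2 encodes the partner of IRF9 in interferon signalling. Its level was 8.70 and 8.80 with solvent, 10.19 and 9.08 with solvent plus CpG, and 10.06 and 8.84 with CLIK148 plus CpG, the higher value of each CpG pair coming from experiment 1. The other 10 arrays lay between 8.52 and 8.82. The change with CpG was thus 1.48 log2 in experiment 1 and 0.28 in experiment 2 (0.88 ± 0.40, limma adjusted p = 0.287, and 0.123 with the block). After CLIK148 these increments were 1.54 and 0.10, and the second Stat2 probe set gave 1.53 and 0.29 after solvent. TNF left Stat2 at 8.64 and 8.82, a difference of -0.02 ± 0.40 from solvent (adjusted p = 0.992).

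Stat4, which transmits IL-12 and interferon signals in T cells, natural killer cells and dendritic cells, differed more between experiments than between treatments. Solvent arrays stood at 9.17 and 10.52, solvent plus CpG at 9.85 and 10.92, and solvent plus TNF at 9.55 and 10.76. Within each experiment the 4 stimulated arrays lay above the 3 unstimulated ones, while all 7 groups overlapped across experiments. CpG added 0.67 and 0.40 log2 in the separate experiments (0.54 ± 0.79 unblocked, limma adjusted p = 0.759; ± 0.15 and adjusted p = 0.0352 with the block), and after CLIK148 0.77 and 0.27 (adjusted p = 0.775, and 0.0424 with the block). TNF added 0.38 and 0.24 (adjusted p = 0.938, and 0.275 with the block).

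Stat6, the IL-4 and IL-13 factor, kept within a range of 0.53 log2 over all 14 arrays. It was 11.67 and 11.41 with solvent, 11.59 and 11.82 with solvent plus CpG, 11.70 and 11.55 with solvent plus TNF, and 11.85 and 11.71 with CA074Me plus TNF. The CpG change was -0.09 log2 in experiment 1 and 0.41 in experiment 2, so its direction differed (0.16 ± 0.12, limma adjusted p = 0.506). TNF after CA074Me gave 0.34 and 0.39 (0.37 ± 0.12, adjusted p = 0.232, and 0.0637 with the block).

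Among the feedback inhibitors, Socs2, which restrains growth hormone and STAT5 signalling, shared with Stat5a the split between stimulated and unstimulated arrays, though not the order of the stimulated groups. It was 12.67 and 12.99 with solvent, 12.71 and 12.96 with CLIK148, and 12.53 and 13.02 with CA074Me. With CpG it was 13.53 and 13.35 after solvent and 13.31 and 13.13 after CLIK148, and with TNF 13.39 and 13.33 after solvent and 13.50 and 13.56 after CA074Me. No stimulated array overlapped an unstimulated one. CpG gave 0.61 ± 0.17 log2 (limma adjusted p = 0.113 without and 0.0298 with the block) and TNF 0.53 ± 0.17 (0.452 and 0.107). TNF after CA074Me gave 0.76 ± 0.17 (adjusted p = 0.0829, and 0.0185 with the block), a rise of 0.97 and 0.54 in the separate experiments. The other 5 Socs2 probe sets lay between 0.16 and 0.66 log2 above solvent with CpG and between 0.15 and 0.68 with TNF.

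Socs3, which blocks signalling from the IL-6 receptor subunit gp130, was 12.15 and 12.88 with solvent, 13.68 and 13.39 with solvent plus CpG, and 13.53 and 13.38 with CLIK148 plus CpG. The CpG groups overlapped no other group, and the other 5 groups overlapped one another, from 11.66 in the CA074Me array of experiment 1 to 13.28 with CA074Me plus TNF in experiment 2. CpG gave 1.53 and 0.51 log2 in experiments 1 and 2 (1.02 ± 0.44, limma adjusted p = 0.267, and 0.0536 with the block). The 2 other Socs3 probe sets gave 1.02 and 1.23 log2, and with the block their p adjusted over all probe sets was 0.0429 and 0.0165, so the call depended on the probe set. The probe set used is of the kind in which some probes can bind other transcripts. TNF gave 0.62 and 0.29 (0.45 ± 0.44, adjusted p = 0.858).

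Socs1, an inhibitor of JAK kinases best known for limiting interferon signals, was 8.12 and 8.49 with solvent, 9.01 and 8.70 with solvent plus CpG, 8.94 and 8.50 with CLIK148 plus CpG, and 8.29 and 8.49 with solvent plus TNF. The increments with CpG were 0.89 and 0.21 log2 (0.55 ± 0.22, limma adjusted p = 0.239, and 0.0916 with the block), and after CLIK148 0.94 and 0.03.

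Cish, an inhibitor of STAT5 signalling that STAT5 itself induces, was the member that lay below solvent with CpG. It was 10.89 and 11.14 with solvent, 10.53 and 11.11 with solvent plus CpG, 10.47 and 11.00 with CLIK148 plus CpG, and 10.77 and 11.02 with solvent plus TNF. All groups overlapped. The CpG change was -0.36 and -0.03 log2 (-0.20 ± 0.25, limma adjusted p = 0.708, and 0.157 with the block). After CLIK148 it was -0.39 and -0.21 (adjusted p = 0.565, and 0.0566 with the block), and with TNF -0.12 in each experiment (adjusted p = 0.923). Whether the changes of Cish and Socs2 differ from each other was not tested.

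**Figure D2:**
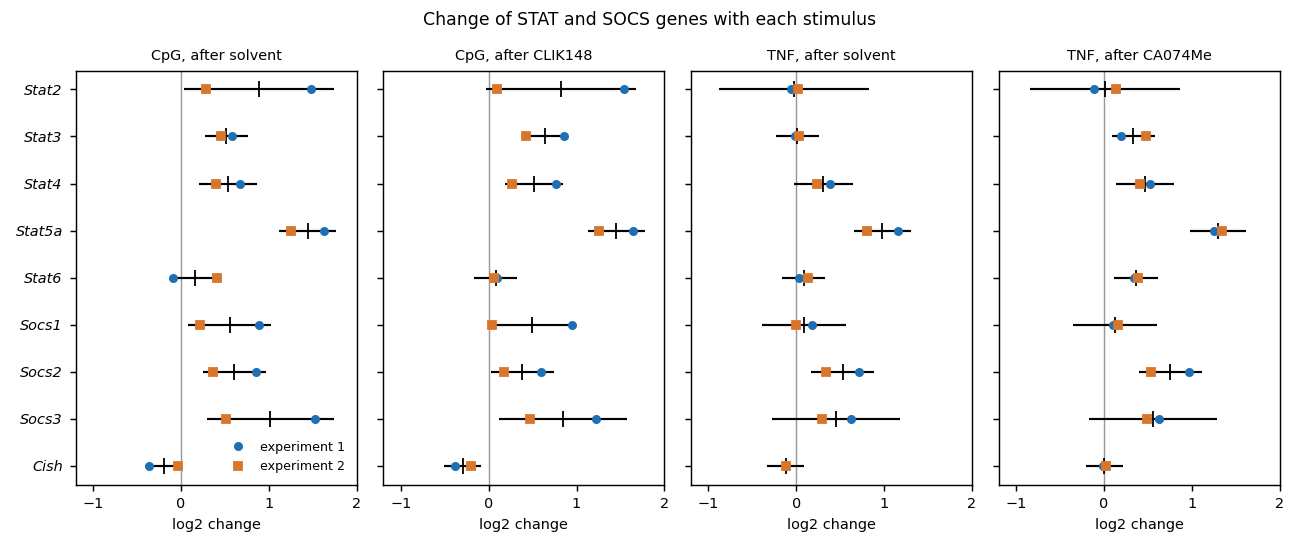
Log2 change (x axis) of the 9 genes (y axis) with CpG after solvent or CLIK148 and with TNF after solvent or CA074Me; ticks are means of 2 experiments, lines are 95% confidence intervals of the fit with the experiment as a block, circles are experiment 1 and squares experiment 2. Stat5a lies farthest to the right in every panel, at 1.44, 1.45, 0.98 and 1.30, and for Stat2 with CpG the experiments stand at 1.48 and 0.28.

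With TNF after solvent 0 of the 9 members changed in limma (2 at an unadjusted p under 0.05), where 0.115% of tested genes did (0.0822% higher, 0.0329% lower), and 1, Stat5a, rose with the block, where 3.11% changed (1.14% higher, 1.97% lower). The members' median change was 0.09 log2, beside -0.05 over all tested genes. After CA074Me 1 member, Stat5a, rose with TNF, where 1.31% of tested genes changed, 0.887% higher, and 2, Stat5a and Socs2, rose with the block (11.1% changed, 4.97% higher and 6.16% lower). After CLIK148 1 member, Stat5a, rose with CpG (0.813% of tested genes changed, 0.411% higher) and 3, Stat3, Stat4 and Stat5a, rose with the block (17.1% changed, 4.03% higher and 13% lower). Without single arrays the Stat5a call after CLIK148 was lost when either CLIK148 array (adjusted p = 0.104 and 0.0595 for experiments 1 and 2) or the CLIK148 plus CpG array of experiment 1 (0.105) was left out. After CA074Me it was lost without the CA074Me array of experiment 1 (0.073) or the CA074Me plus TNF array of experiment 2 (0.0734).

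CpG and TNF after solvent share their solvent arrays, so their changes are set side by side for the members. Socs2 had 0.61 log2 with CpG and 0.53 with TNF, Stat3 0.52 and 0.01, Stat2 0.88 and -0.02, and Socs1 0.55 and 0.09. Compared directly, 0 members differed between solvent plus CpG and solvent plus TNF (limma; 2 at an unadjusted p under 0.05, and 0 adjusted and 3 unadjusted with the block), where 0.00822% of tested genes did and 0.435% with the block (0.345% higher, 0.0904% lower). Stat3 was 0.59 and 0.42 log2 higher with CpG than with TNF in experiments 1 and 2 (0.50 ± 0.18, adjusted p = 0.685, and 0.0962 with the block, with a 95% interval from 0.26 to 0.75), and its second probe set was 0.66 log2 higher and passed with the block (adjusted p over all probe sets 0.0467). For Socs2 the interval with the block ran from -0.28 to 0.44.

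**Figure D3:**
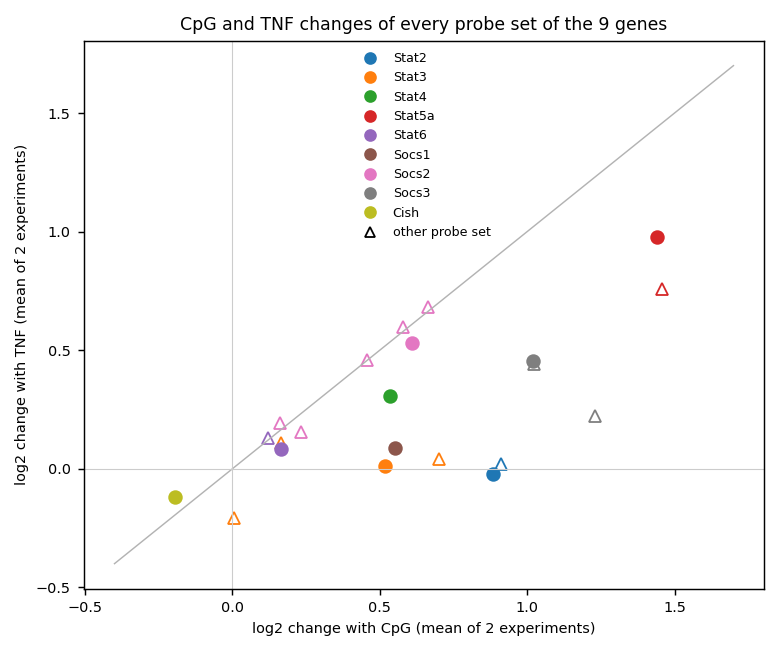
Log2 change with TNF (y axis) against log2 change with CpG (x axis), each the mean of 2 experiments, for all 22 single-gene probe sets of the 9 genes; filled circles are the probe sets used, open triangles the others, and the grey line marks equal change. Socs2 probe sets lie near the line, the brighter Stat3, Socs1 and Stat2 ones lie near 0 on the TNF axis, and 1 of the dim Stat3 probe sets stands at 0.01 and -0.21.

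None of the 9 members passed the test for either inhibitor. CLIK148 alone gave changes from -0.18 log2 for Stat3 to 0.10 for Socs3, and CA074Me alone from -0.29 for Socs3 to 0.04 for Socs1, with a 95% interval for Socs3 from -1.02 to 0.43 in the blocked fit. The central 95% of all tested genes ran from -0.14 to 0.11 and from -0.23 to 0.13, so that Stat3 with CLIK148 and Socs3 with CA074Me lay outside it. Under CpG, CLIK148 gave -0.22 for Socs2 to -0.04 for Stat5a, with all 9 members below solvent plus CpG in the mean and 8 in both experiments, beside 33.4% of tested genes below 0 in both. These members share the same arrays, and most other lists leaned the same way, while the STAT6 targets split evenly. Below 0 in the mean were 10 of 10 dendritic cell markers and, of lists described below, 17 of 18 further kinases, STATs and regulators. So were 17 of 21 receptors, 7 of 12 ligands and 10 of 13 interferon targets. Of the STAT5, STAT3 and STAT6 targets 6 of 7, 7 of 10 and 5 of 10 lay below 0. Under TNF, CA074Me gave -0.19 for Socs3 to 0.29 for Stat5a, the latter from 0.04 and 0.54 in the separate experiments. The central 95% of tested genes ran from -0.19 to 0.12 for CLIK148 under CpG and from -0.19 to 0.22 for CA074Me under TNF. Socs2 and Stat6 (-0.20) lay outside the former range and Stat5a outside the latter. In each of these 4 comparisons 0 members changed with or without the block, and 0 had an unadjusted p under 0.05 (limma). Over all tested genes 0% changed in each of the 4, and with the block 0.00822% did for CA074Me under TNF. The tests were cautious there, since 0.0986% to 0.805% of tested genes had an unadjusted p under 0.05 without the block and 0.37% to 3.04% with it.

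Both inhibitors were given alone at 5 µM, and the 9 members were compared between them in 1 pair of groups. CLIK148 minus CA074Me ranged from -0.12 log2 for Socs1 to 0.39 for Socs3, the latter from 0.65 and 0.12 in experiments 1 and 2, and 0 members differed (limma, also at an unadjusted p under 0.05), as did 0% of tested genes. The central 95% of tested genes ran from -0.16 to 0.22 here, and Socs3 lay outside it. The 95% intervals with the block ran from -0.34 to 1.11 for Socs3, from -0.34 to 0.30 for Stat5a and from -0.23 to 0.26 for Stat3. Under stimulus the inhibitors met different ligands and were not compared.

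**Figure D4:**
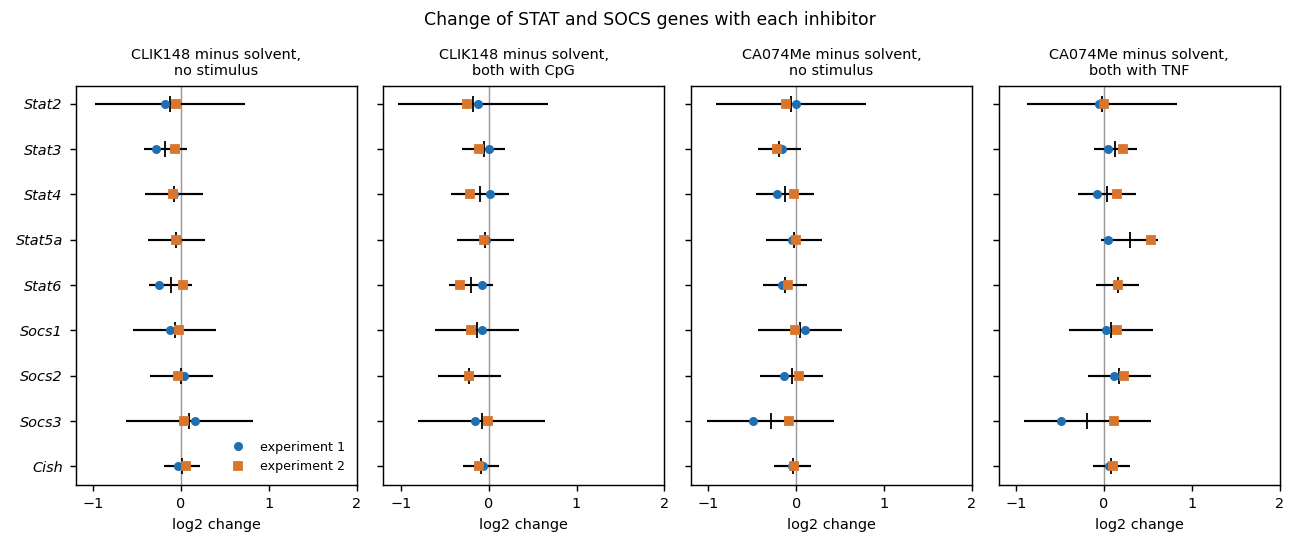
Log2 difference from the matching solvent group (x axis) of the 9 genes (y axis) for CLIK148 and CA074Me without stimulus and under CpG or TNF, drawn as for the stimulus changes. The means lie between -0.29 and 0.29, every 95% interval of the blocked fit includes 0, and the CA074Me values of Socs3 in experiment 1 stand at -0.50 and -0.49.

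The difference of a stimulus change after inhibitor and after solvent was also fitted. For CLIK148 and CpG it lay between -0.22 log2 for Socs2 and 0.12 for Stat3, and for CA074Me and TNF between 0.04 for Stat2 and 0.32 for Stat3. In the latter 9 of 9 members lay above 0, beside a median of 0.03 over all tested genes. In both experiments 7 members did, beside 36.8% of tested genes, while 20.0% of tested genes lay below 0 in both. The other pathway and target lists described below leaned upward too, except for the STAT6 targets, which split evenly. Above 0 were 13 of 13 interferon targets, 16 of 18 further kinases, STATs and regulators, 14 of 21 receptors and 10 of 12 ligands. The same held for 7 of 7 STAT5 targets, 8 of 10 STAT3 targets and 5 of 10 STAT6 targets. Stat5a had 0.32 ± 0.21 for CA074Me and TNF, from 0.10 and 0.54 in the separate experiments, and its 95% interval with the block ran from -0.14 to 0.78. None of the 9 members passed in either comparison, with or without the block or at an unadjusted p under 0.05, and 0% of tested genes did (limma adjusted p).

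The gap between experiments was itself a feature of several members, examined after their values were seen. In the blocked fit experiment 2 exceeded experiment 1 by 1.25 ± 0.08 log2 for Stat4 (limma adjusted p = 7.27e-06; 0.83 to 1.54 in the separate groups, higher in 7 of 7), by 0.36 ± 0.05 for Cish (adjusted p = 0.000472; 7 of 7), by 0.23 ± 0.06 for Stat3 (adjusted p = 0.0112; 6 of 7) and by 0.49 ± 0.17 for Socs3 (adjusted p = 0.0439; 5 of 7). Those 4 members are set beside 32.4% of all tested genes higher and 12.2% lower in experiment 2. Stat2, Stat5a, Stat6, Socs1 and Socs2 had gaps from -0.23 to 0.12 log2 and did not pass. For Stat2, Stat5a, Socs1, Socs2 and Socs3 the sign turned with CpG, experiment 2 being lower in both CpG groups and, except in 1 CA074Me pair for Stat2, higher in every unstimulated group. For Stat5a and Socs2 experiment 2 was also lower with solvent plus TNF, with gaps of -0.18 and -0.06 log2. What set the experiments apart is not stated in the labels.

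The genes most alike over the 14 arrays, by Pearson's r as a description, were Lad1 for Stat5a (0.99), the interferon-inducible gene Nmi for Stat2 (0.99), the phosphatase gene Dusp4 for Stat4 (0.99), Fam3a for Cish (0.98) and Nudt17 for Socs2 (0.98). For Socs1, Stat3, Socs3 and Stat6 they were Fmnl2 (0.97), Arhgap35 (0.97), the prion protein gene Prnp (0.96) and the chaperone gene Cdc37 (0.93). Within the family r was highest for Stat5a with Socs2 (0.89), Stat3 with Socs3 (0.89), Stat3 with Socs1 (0.87) and Stat2 with Socs1 (0.86), and lowest for Stat2 with Cish (-0.67). All these values share the same arrays, stimuli and gap between experiments.

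The counts for the lists that follow are to be read against all tested genes, of which 6.19% rose and 13.7% fell with CpG and 1.14% rose and 1.97% fell with TNF in the blocked fit. Among 18 other kinases, STATs and regulators of the pathway 0 changed with CpG in limma, and 4 rose and 2 fell with the block (median 0.18 log2). Socs5, a further SOCS gene, was 0.77 and 0.49 log2 lower in the separate experiments (-0.63 ± 0.18, adjusted p = 0.113, and 0.0157 with the block), and Irf9, the DNA-binding partner of STAT2, was 0.78 and 0.34 higher (0.56 ± 0.18, 0.162 and 0.0238). With TNF 0 changed, and 1, Jak2, rose with the block (0.33 log2, ± 0.07 and adjusted p = 0.0456 with the block, ± 0.14 and 0.681 without). Socs6 and Socs5 had -0.43 ± 0.51 and -0.42 ± 0.18 log2 with TNF (adjusted p = 0.88 and 0.653).

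Of 21 receptor chains tested, 1 fell with CpG, the interferon gamma receptor gene Ifngr1, by 0.81 ± 0.14 log2 (limma adjusted p = 0.029), and with the block 1 rose and 3 fell, where 19.9% of all tested genes changed. Lifr, the leukaemia inhibitory factor receptor gene, was among the 3, at -1.76 and -1.53 log2 in the separate experiments (-1.64 ± 0.51, adjusted p = 0.143, and 0.0013 with the block), and it was named after its values were seen. The chains of the GM-CSF receptor, Csf2ra and Csf2rb, were -0.24 ± 0.39 and -0.00 ± 0.10 log2 from solvent with CpG (adjusted p = 0.782 and 0.987). With TNF 0 changed, and Lifr fell with the block here too (-1.15 ± 0.51 log2, adjusted p = 0.698 and 0.0138), while Il6ra had -0.50 ± 0.28 (0.772). Of 12 ligands 1 rose with CpG, Il12b, which encodes the p40 chain of the STAT4-activating cytokine IL-12, by 4.79 and 2.64 log2 in the separate experiments (adjusted p = 0.0341), and 2 rose with the block. With TNF 0 ligands changed, also with the block, and Il12b and Il6 had 1.18 ± 0.67 and 0.80 ± 0.74 log2 (adjusted p = 0.779 and 0.851).

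STAT target genes were listed from textbook knowledge, and the lists were not tested against each other. All 13 targets of interferon signalling lay above 0 with a median of 1.80 log2, 2.74 in experiment 1 and 0.77 in experiment 2, and 0 passed limma while 6 rose with the block. Cxcl10 and Ifit1 had the largest values, 2.26 ± 1.65 and 2.15 ± 0.99 log2 (adjusted p = 0.504 and 0.291, and 0.0512 and 0.0281 with the block). With TNF the 13 had a median of 0.26, 0 called with or without the block, and Cxcl10 and Rsad2 at 0.82 ± 1.65 and 0.53 ± 1.03 (adjusted p = 0.923 and 0.919).

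Of 7 STAT5 targets 1 rose with CpG, Bcl2l1, which encodes the survival protein BCL-XL, by 1.39 ± 0.17 log2 (limma adjusted p = 0.00903; 1.59 and 1.19 in the separate experiments), and with the block 3 rose and 1 fell. With TNF 0 changed, also with the block, and Ccnd2 and Bcl2l1 had 0.77 ± 0.40 and 0.64 ± 0.17 log2 (adjusted p = 0.772 and 0.346, and 0.059 for Bcl2l1 with the block). Of 10 STAT6 targets the chemokine genes Ccl22 and Ccl17 rose with CpG by 1.08 ± 0.19 and 0.59 ± 0.11, and Clec10a and Mgl2, which encode lectins, fell by 1.60 ± 0.28 and 1.36 ± 0.17 (adjusted p = 0.0326, 0.0396, 0.0326 and 0.00909). With the block 2 of the 10 rose and 4 fell with CpG. Mgl2 also fell with TNF, by 1.28 ± 0.17 (adjusted p = 0.0348), and with the block 1 of the 10 rose and 3 fell with TNF. Of 10 STAT3 targets 1 fell with CpG, Myc, by 0.74 ± 0.15 log2 (adjusted p = 0.0432), and with the block 3 rose and 2 fell, at a list median of 0.07 log2, beside 19.9% of all tested genes changed. With TNF 0 of these changed (1 rose and 1 fell with the block), with Fos and Myc at -0.68 ± 0.43 and -0.60 ± 0.15 log2 (adjusted p = 0.802 and 0.285, and 0.0188 for Myc with the block).

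**Figure D5:**
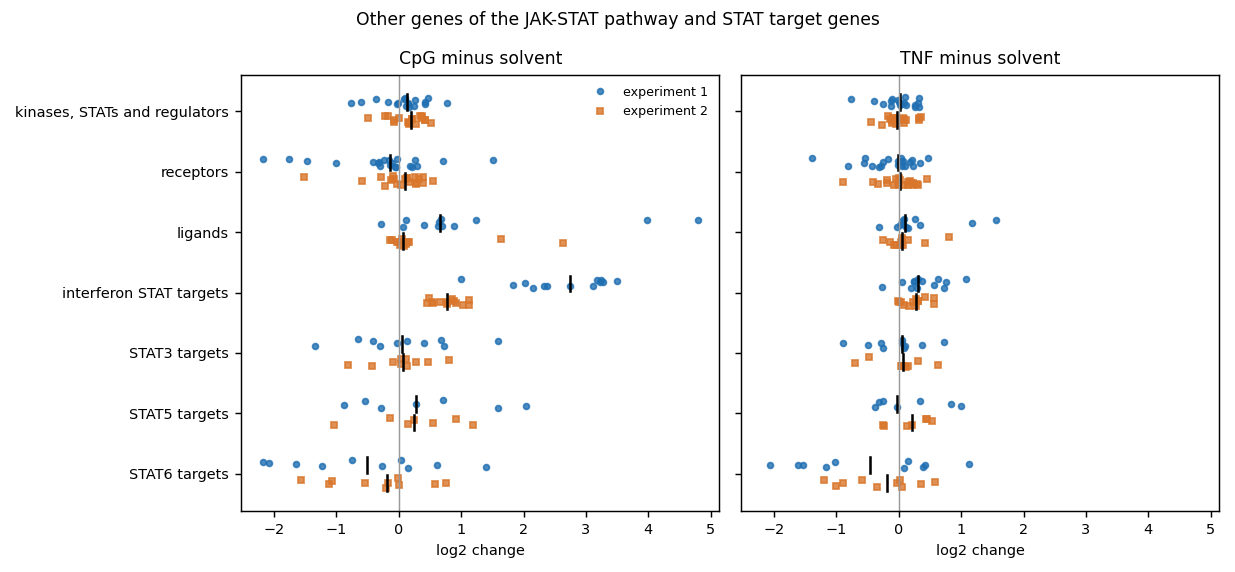
Log2 change (x axis) with CpG (left) and TNF (right) of other JAK-STAT pathway genes and STAT target genes, by list (y axis), with 1 point per gene and experiment, circles for experiment 1, squares for experiment 2 and black ticks at list medians. The interferon targets have medians of 2.74 and 0.77 with CpG in experiments 1 and 2, the other lists' medians with CpG lie between -0.51 and 0.66, and those with TNF between -0.47 and 0.30.

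Markers of other cell types gave these values beside the stimulus changes. The summed level of 8 macrophage markers was 15.17 and 15.18 log2 with solvent, 15.27 and 15.02 with solvent plus CpG, and 14.92 and 14.99 with solvent plus TNF, and of the 8 genes 0 changed in limma with either stimulus while 3 fell with CpG in the blocked fit. The brightest genes weigh most in that sum. Gene by gene the median change of the 8 was -0.21 log2 with CpG (5 below 0, 3 above). With TNF it was -0.37 (7 below, 1 above), beside -0.05 over all tested genes with either stimulus. For 7 granulocyte markers the summed level was 16.43 and 16.32 with solvent, 16.60 and 16.36 with solvent plus CpG, and 16.58 and 16.31 with solvent plus TNF, and 0 changed, also with the block. The part of cell mixture in the Stat5a and Socs2 values was not tested.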

How the data were processed

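Expression was measured on 14 Affymetrix mouse arrays. The deposited log2 values are the authors' RMA summaries made in R 3.0.1, per the submitters' processing notes; RMA corrects background, normalises quantiles and summarises probes, and its settings are not stated in the labels. Per the labels' protocols, 100 ng of RNA was labelled per array. Of 45101 probe sets 34945 had 1 gene, and the brightest per gene was kept. The 12172 genes with 2 or more arrays over the median of all values were tested with limma 3.58.1 in R 4.3.3, 7 groups in 1 fit, two-sided, with Benjamini-Hochberg adjustment over all of them and a threshold of 0.05. The number of arrays, 2 in each group, limits precision.

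Replicate numbers 1 and 2 were read as the 2 independent experiments of the design text. Differences between replicates correlated over the 21 pairs of groups with r from 0.455 to 0.935, so the numbers pair the arrays, and a fit with the experiment as a block is given where it changes a call. All 9 members were named. Of each pathway list the called genes (at most 4) or else the 2 largest changes were named, and per member the gene with the highest r; Jak2, Lifr with CpG, Stat5b, Csf2ra and Csf2rb were picked after their values were seen. Members and lists were chosen with earlier results of these data known. The fit was tested on simulated data with independent noise and no gap between experiments, so that test does not cover the gap seen here. Alternatives covered the block, filter, probe sets, scaling, weights and single arrays. Promoter sequences are RefSeq's.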

Additional observations from a re-analysis of the deposited data

Results flagged for a closer look

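For 5 members the inhibitor's change lay in opposite directions with and without a stimulus, in both experiments. The signs alone set this flag, and the share of all tested genes that meet it was not counted. For Socs3, CLIK148 gave 0.16 and 0.03 log2 alone and -0.15 and -0.01 under CpG, an interaction of -0.18 ± 0.63 (limma adjusted p = 1.00). For CA074Me alone and then under TNF, Stat3 had -0.17 and -0.22 against 0.04 and 0.22 (interaction 0.32 ± 0.25), Stat5a -0.05 and -0.00 against 0.04 and 0.54 (0.32 ± 0.21), Stat6 -0.16 and -0.09 against 0.15 and 0.16 (0.28 ± 0.17), and Cish -0.05 and -0.03 against 0.06 and 0.10 (0.12 ± 0.35). In limma the adjusted p of each interaction was 1.00, with and without the block, so none of the 5 differences passed its test.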

How the results depend on the processing

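With the experiment as a replicate block the members called were 4 with CpG, 1 with TNF, 3 with CpG after CLIK148 and 2 with TNF after CA074Me, against 1, 0, 1 and 1. Cyclic loess and array weights each called 1 with TNF (Stat5a, adjusted p = 0.0498 and 0.026), and array weights called 2 with TNF after CA074Me. With only the compared groups 0 were called with CpG, CpG after CLIK148 and TNF after CA074Me (5, 4 and 3 at an unadjusted p under 0.05, limma). Leaving out 1 array gave 0 to 1 in each of these 3 comparisons. Over 11 alternatives Stat5a kept a CpG change of 1.34 to 1.54 log2 (adjusted p = 0.00129 to 0.528) and a TNF change of 0.87 to 1.07 (0.0138 to 0.627). After CLIK148 its range was 1.35 to 1.56 (0.00207 to 0.348) and after CA074Me 1.14 to 1.46 (0.00137 to 0.11). Of 1260 recomputed member changes 1241 kept their side of the threshold, 9 lost and 10 gained a call. Most of the 1260 had no call to lose. For Stat5a, the called member, 9 of 11 alternatives kept the call with CpG. It was kept in 7 of 11 with CpG after CLIK148 and in 8 of 11 with TNF after CA074Me. Among the 1260, 0 called changes turned sign, and 152 turned sign without a call in either fit. The tests over all probe sets were chosen after seeing the data.

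Over all genes the counts were 234 with CpG, 14 with TNF, 1 between them, 99 after CLIK148 and 159 after CA074Me, and 2420, 379, 53, 2077 and 1355 with the block, which also called 1 gene for CA074Me under TNF. Array weights gave 48, 34, 155 and 369 for the 4 stimulus comparisons, and the compared groups alone 0 (1035, 923, 1481 and 1755 at an unadjusted p under 0.05). Cyclic loess gave 31 with TNF and 169 after CLIK148, and reference-gene scaling 5 with TNF and 97 after CA074Me. With CpG 130 were higher and 104 lower, and 77 and 113 with reference-gene scaling. After CA074Me 108 and 51 became 132 and 96 with cyclic loess. Without an array of the compared groups CpG called 1 to 1611 genes and TNF 0 to 5, and without an array of any group TNF called 0 to 18.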
